A study of Erythranthe nudata with 6 samples.

Results

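The genes described here were expressed in wild-type ovule-bearing tissue of Mimulus nudatus (Erythranthe nudata, a monkeyflower) and higher in every mutant plant of a line with carpel-like ovules. They were chosen on their levels, as CPM (the read count of a gene per 1000000 counts of its library). A gene was a member if it had at least 1 CPM in each wild-type library, at least 10 CPM in each mutant library, and a lowest mutant CPM at least 2 times its highest wild-type CPM. The rule chose 47 of the 28064 genes in the table, which is 0.167%. Of the 9116 genes that reached both CPM floors, 693 (7.60%) had every mutant library above every wild-type library, and the 47 members made up 0.516%. Because the rule used the contrast of mutant and wild type, all folds and differences between the genotypes of the members are descriptions of the chosen genes.

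The mutant group held 3 F2 plants homozygous for a recessive mutation that turns ovules carpel-like, and the wild-type group held 3 F2 plants homozygous for the normal allele. The first mutants were found by chance in the inbred line GMR2, from which all plants descended, and 150 F2 plants of crosses between mutant and wild-type plants were screened to find both genotypes. The labels give neither the mutated gene nor an age. Each library came from 1 plant, whose 6 gynoecia from open flowers were pooled after the ovary walls had been taken off. The material was the replum, also called the septum in the labels, with the ovules still attached. The levels therefore belong to that mixture and not to carpel-like ovules alone. In bulk tissue of this kind, more cells of a type and more RNA per cell cannot be told apart.

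Ovules arise on the inner margins of carpels, and their integuments, the cell layers that wrap the nucellus, later form the seed coat. In Arabidopsis, carpel and ovule identity are set by related MADS-box transcription factors of the AGAMOUS group, and the homeodomain protein BELL1 acts with them in the integuments. Arabidopsis plants without BELL1 form abnormal ovules that can turn carpel-like, and the series title places the defect of the mutant, named Medusa, in integument identity and the female gametophyte. The table names genes by annotation identifiers alone, and names, positions and sequences were not used here. Whether any of these regulators or other markers of carpel, ovule, pollen or seed coat is among the members was therefore not examined, and the labelled tissue could not be checked against its markers.

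Libraries held 35487055 to 45149217 counts, so 1 count stood for 0.0221 to 0.0282 CPM. The least abundant reading of any member was 389 counts in a mutant library and 43 counts in a wild-type library. All 47 members passed the count filter of the genome-wide test.

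Mutant replicate 1 stood apart from the other mutant libraries and decided more than any other library which genes were members. Without it, 261 genes met the rule, against 47 with all libraries. Without mutant replicates 2 and 3 the numbers were 79 and 77, and without wild-type replicates 1, 2 and 3 they were 107, 72 and 73. All of these numbers are on total counts. Selections without a library were not repeated with other scaling, and the part of library scaling in them was not tested. Removing a library can only admit genes, and all 47 members met the rule in each of these selections. The 214 genes kept out by mutant replicate 1 alone had a median level of 1.18 times the wild-type mean in that library. Their medians were 4.27 times the wild-type mean in mutant replicate 2 and 3.92 times in mutant replicate 3. In mutant replicate 1, 117 of the 214 were at or below their highest wild-type level, and 86 were below 10 CPM. Together they took 1.15% of the counts of mutant replicate 1, 4.79% of mutant replicate 2 and 4.24% of mutant replicate 3, against 0.871%, 1.05% and 0.884% in wild-type replicates 1 to 3. These differences between the mutant plants follow from how the 214 genes were picked.

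Summed over the 47 genes, the members took a larger share of the mutant than of the wild-type libraries. They held 0.458%, 0.487% and 0.455% of the counts in mutant replicates 1, 2 and 3, against 0.115%, 0.0834% and 0.0976% in wild-type replicates 1, 2 and 3. The mean share was 0.467% ± 0.0173 in the mutant and 0.0986% ± 0.0157 in the wild type (SD, n = 3 each). The share depends on which genes the rule admits. The genes chosen without mutant replicates 1, 2 and 3 took a mean of 4.99%, 2.33% and 1.09% of the counts of the remaining mutant libraries. Those chosen without wild-type replicates 1, 2 and 3 took 2.43%, 0.742% and 0.984% of the mutant counts, and those chosen with scaling factors on the library sizes (TMM, described with the mirrored rule) took 2.40%. The genes added to the members took wild-type counts too. Those added without mutant replicates 2 and 3 took 0.350% to 0.587% and 0.160% to 0.206% of the wild-type libraries. Those added without wild-type replicates 1, 2 and 3 took 0.427% to 0.879%, 0.0568% to 0.0938% and 0.0685% to 0.205%. Without the 3 most abundant members the shares were 0.324% ± 0.0312 in the mutant and 0.0685% ± 0.00828 in the wild type (SD, n = 3 each). Those 3 genes held 30.5% of the summed mutant level, and 8 members held 50% of it.

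**Figure D1:**
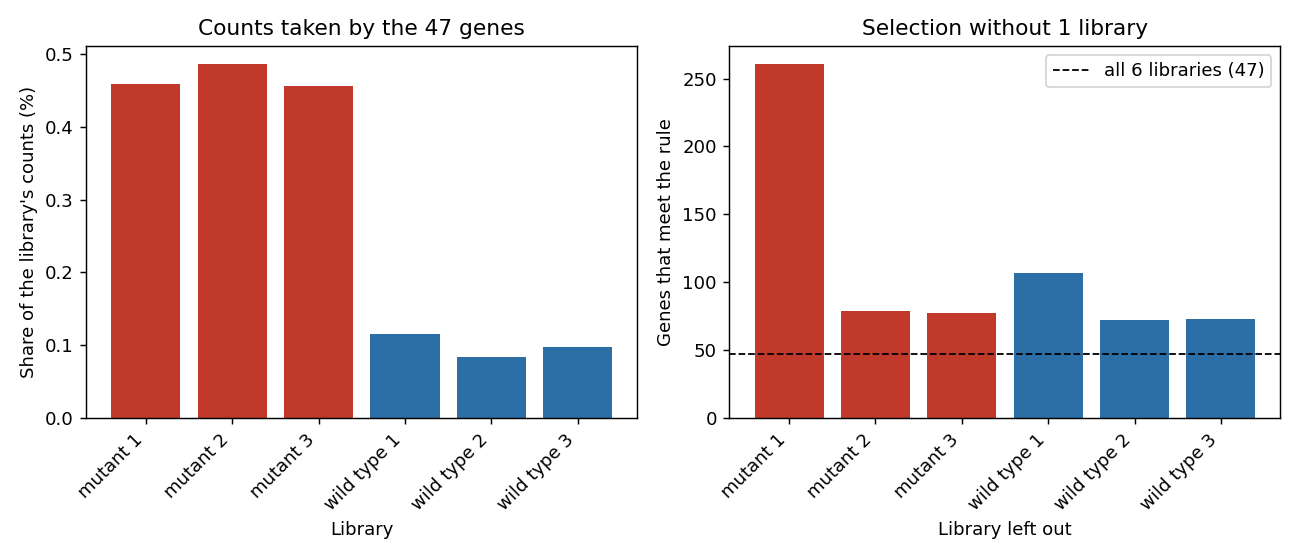
Left, the share of each library's counts (%) taken by the 47 raised genes in the 3 mutant and 3 wild-type libraries, which lay at 0.455% to 0.487% in the mutant and 0.0834% to 0.115% in the wild type. Right, the number of genes that met the rule when the library on the axis was left out, which was 261 without mutant replicate 1 and 72 to 107 without any other, against 47 (dashed line) with all 6.

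Members covered a wide range of abundance in both genotypes. Their mean levels ran from 11.8 to 622 CPM in the mutant, with a median of 55.0 CPM, while they ran from 1.61 to 119 CPM in the wild type, with a median of 10.5 CPM. In the mutant, 15 members averaged at least 100 CPM, 16 averaged 30 to 100 CPM and 16 averaged less than 30 CPM. Ranked by mean level among all 28064 genes, the median member stood at rank 3432 in the mutant and at rank 11450 in the wild type. Among the 1000 most abundant genes there were 7 members in the mutant and 0 in the wild type. All 47 had a higher abundance rank in the mutant.

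The ratio of the mutant to the wild-type mean was mostly between 3 and 6. It ran from 2.79 to 18.5 with a median of 4.92, while the median over all 9116 genes at both floors was 0.953. The ratio was under 3 for 2 members, from 3 to under 4 for 13, from 4 to under 5 for 10, from 5 to under 6 for 11, from 6 to under 8 for 5, and 8 or more for 6. A single member was more than 10-fold higher on total counts. Members with a wild-type mean of at least 20 CPM numbered 17 and had a median ratio of 4.55, with none above 6.39. The 18 members at 5 to 20 CPM had a median of 4.84, and the 12 members under 5 CPM had a median of 5.43. The floor of 10 CPM in the mutant admits weakly expressed genes at large ratios only, so part of that order is built into the selection.

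The median ratio was of similar size in the mutant plants. A ratio of at least 2 in every mutant plant was fixed in advance by the rule. The median member stood at 3.92 times its wild-type mean in mutant replicate 1, 4.72 times in mutant replicate 2 and 4.87 times in mutant replicate 3. The lowest ratios in these plants were 2.45, 2.37 and 2.47. Mutant replicate 1, lowest of the 3 by this median, gave the lowest mutant reading for 23 members (48.9%), near its share of 43.7% over all genes at both floors.

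**Figure D2:**
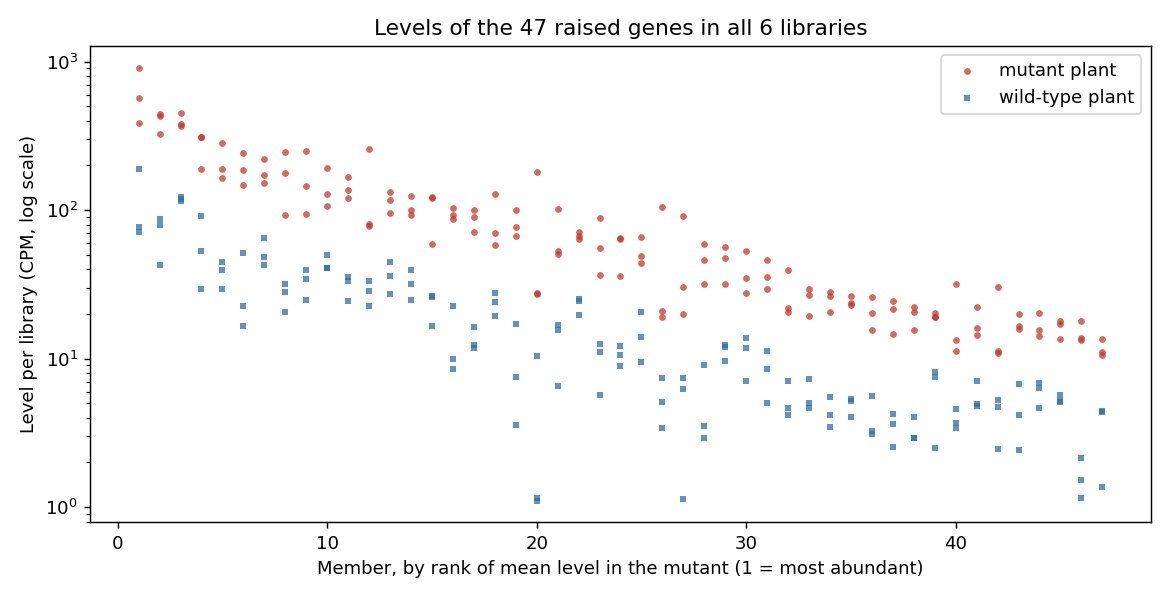
Level (CPM, log scale) of each of the 47 members in the 3 mutant plants (red circles) and the 3 wild-type plants (blue squares), with members ordered by mean mutant level. The mutant points of each member lie above its wild-type points, as the rule demands, and means fall to 11.8 CPM in the mutant at rank 47.

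The most abundant member in the mutant was MgTOL.F0312.v5.0. It had 912, 387 and 568 CPM in mutant replicates 1 to 3, against 190, 70.8 and 76.6 CPM in wild-type replicates 1 to 3. The highest plant of each genotype was its replicate 1, and the lowest mutant plant was 2.04 times the highest wild-type plant. Its mean was 622 ± 267 CPM in mutant plants, against 112 ± 67.0 CPM in wild-type plants (SD, n = 3 each), a ratio of 5.54. From 75026 counts in the mutant and 13625 in the wild type, the ratio of pooled levels was 5.83, with an exact 95% counting interval of 5.73 to 5.94. Counting intervals do not include the spread between plants, which was far wider here. The function of this gene is not given in the sources used here.

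The clearest separation was in MgTOL.L0072.v5.0, a weakly expressed member. It had 17.9, 13.8 and 13.4 CPM in mutant replicates 1 to 3, against 1.53, 1.15 and 2.13 CPM in wild-type replicates 1 to 3. The lowest mutant plant was 6.30 times the highest wild-type plant, the largest such distance among the 47. It was read 736, 488 and 565 times in the mutant and 58, 52 and 91 times in the wild type. The mean was 15.0 ± 2.51 CPM in mutant plants, against 1.61 ± 0.495 CPM in wild-type plants (SD, n = 3 each), a ratio of 9.36. The ratio of pooled levels was 9.43, with an exact 95% counting interval of 8.15 to 10.96. This interval covers neither the spread between plants nor the choice of this gene for its separation. In mean mutant level it was at rank 46 of 47, so the best separated and the most abundant member lay at opposite ends of the order. Its function, too, is not given in the sources used here.

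The next members in mutant abundance are given by rank. Rank 2 had 326, 444 and 433 CPM in mutant replicates 1 to 3, against 78.8, 42.8 and 86.9 CPM in wild-type replicates 1 to 3. Rank 3 had 379, 454 and 366 CPM in the mutant, against 116, 122 and 119 CPM in the wild type. Its wild-type plants were the most alike of all members, with the highest only 1.05 times the lowest. Rank 4 had 311, 191 and 312 CPM in the mutant, against 91.3, 29.7 and 53.4 CPM in the wild type, where the plants differed by 3.08 times. Rank 5 had 284, 164 and 191 CPM in the mutant, against 44.8, 29.3 and 39.6 CPM in the wild type. Of these 4 members, mutant replicate 1 was the lowest mutant plant only at rank 2, and it was the highest at rank 5.

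At the middle of the order, the member at rank 24 had 36.0, 64.2 and 64.8 CPM in the mutant, against 8.86, 12.1 and 10.6 CPM in the wild type. The last member, at rank 47, had 13.7, 11.1 and 10.5 CPM in the mutant, against 4.37, 1.37 and 4.41 CPM in the wild type. Its lowest mutant reading was the one nearest to the floor of 10 CPM.

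The spread between plants of a genotype varied among the members. The highest mutant plant was a median of 1.64 times the lowest, and the highest wild-type plant a median of 1.63 times the lowest. Over all genes at both floors these medians were 1.67 in the mutant and 1.51 in the wild type, although the rule limits how far members can spread. At least a 2-fold spread was seen among mutant plants for 12 members and among wild-type plants for 18, and 6 members were in both counts. Among the 12, the highest plant was mutant replicate 1 for 4 members, replicate 2 for 5 and replicate 3 for 3. No mutant plant was the source of most of these high readings.

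In 4 members the mutant plants differed by at least 3-fold, and in each of them 1 mutant plant stood out. The member at rank 20 had 27.4, 180 and 27.6 CPM in mutant replicates 1 to 3, against 10.4, 1.11 and 1.15 CPM in wild-type replicates 1 to 3. Mutant replicate 2 and wild-type replicate 1 were the high plants, and this member had the largest ratio of means, 18.5. That ratio rests on mutant replicate 2, since the lowest mutant plant was only 2.63 times the highest wild-type plant. In the member at rank 12, levels were 78.6, 256 and 81.2 CPM in the mutant, against 22.5, 33.3 and 28.7 CPM in the wild type, so mutant replicate 2 was again the high plant. In the member at rank 26, levels were 105, 20.8 and 19.0 CPM in the mutant, against 3.44, 5.12 and 7.46 CPM in the wild type, with mutant replicate 1 high. In the member at rank 27, levels were 19.9, 30.2 and 91.2 CPM in the mutant, against 1.14, 6.29 and 7.37 CPM in the wild type, with mutant replicate 3 high and wild-type replicate 1 low.

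At the other end, some members had nearly the same level in all plants of a genotype. Levels of the member at rank 39 were 18.9, 19.2 and 20.4 CPM in the mutant, against 2.49, 8.11 and 7.48 CPM in the wild type. Levels of the member at rank 35 were 26.5, 23.1 and 23.7 CPM in the mutant, against 5.34, 5.18 and 4.03 CPM in the wild type. Its lowest mutant plant was 4.32 times its highest wild-type plant, and 3 members in all reached 4 times. These examples were chosen after their values had been seen.

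**Figure D3:**
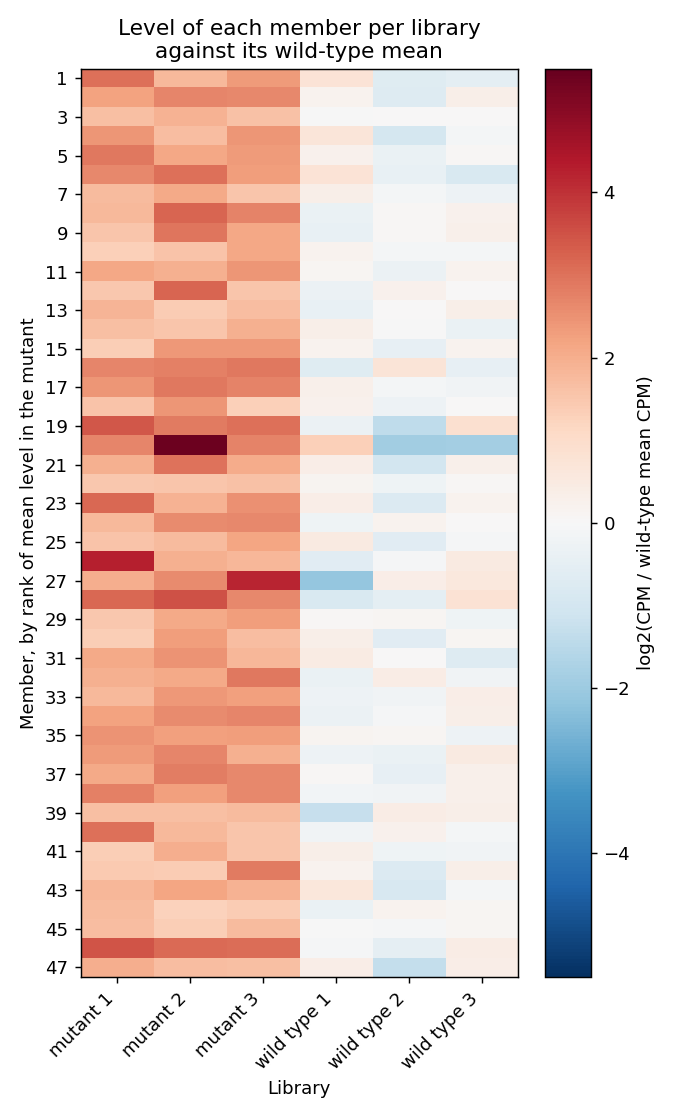
Level of each member in each library as log2 of its CPM over its own wild-type mean, with the 3 mutant libraries on the left, the 3 wild-type libraries on the right and members ordered by mean mutant level. Single dark cells at ranks 20, 26 and 27 mark the members in which mutant replicate 2, 1 and 3 was far above the other mutant plants.

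Among wild-type plants, replicate 2 tended to hold the lowest reading of a member. It was the lowest for 23 members (48.9%), replicate 1 for 16 (34.0%) and replicate 3 for 8 (17.02%). Over all 9116 genes at both floors the lowest plant was wild-type replicate 2 for 31.1%, replicate 1 for 26.2% and replicate 3 for 42.7%. Wild-type replicate 3 was a median of 0.14 above the mean of the other wild-type plants on the log2 scale for the members and 0.11 below it (-0.11) for all genes at both floors. The rule did not set the order of plants within a genotype. It did use the highest wild-type and the lowest mutant level, so the level of a single plant could decide membership. Leaving out wild-type replicates 1, 2 and 3 added 60, 25 and 26 genes. The shares of lowest readings can therefore be shaped by the selection. No test was made of them because genes that vary together are not independent. Across the 47 genes, the order of levels was shared between plants, with Spearman correlations of 0.827 to 0.875 between mutant plants and 0.833 to 0.892 between wild-type plants. The members share the library of each plant, and genes are not independent replicates.

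In the genome-wide test, 35 of the 47 members were called higher in the mutant (edgeR quasi-likelihood test, Benjamini-Hochberg adjusted p below 0.05 over 20305 genes). Of all tested genes 63 were called higher (0.310%), and of the genes at both floors 52 (0.570%). The rule used the same contrast, so nothing is read from the high share among members. The 12 members without a call had a median ratio of 4.87, against 4.95 for the 35 with one. The highest mutant plant was a median of 2.56 times the lowest for these 12 members and 1.54 times for the 35. Wild-type spread varied among the 12 too. It was 4.79, 3.26 and 3.21 times at ranks 19, 39 and 47, where mutant spread was 1.48, 1.08 and 1.30 times. It was 1.48, 1.34 and 1.46 times at ranks 12, 40 and 44, where mutant spread was 3.26, 2.84 and 1.43 times. Why these members had no call was not tested. MgTOL.L0072.v5.0 was called, and MgTOL.F0312.v5.0 was not. DESeq2 called all 47, with 2.90% of the 22289 genes with an adjusted p called higher. The number of edgeR calls moved with single libraries, out of 20738 to 20957 tested genes. Without mutant replicates 1, 2 and 3, 32, 12 and 2 members were called, and 231, 15 and 3 genes in all. Without wild-type replicates 1, 2 and 3, 2, 2 and 7 members were called, and 2, 2 and 10 genes in all. The calls over all genes thus rose only without mutant replicate 1.

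**Figure D4:**
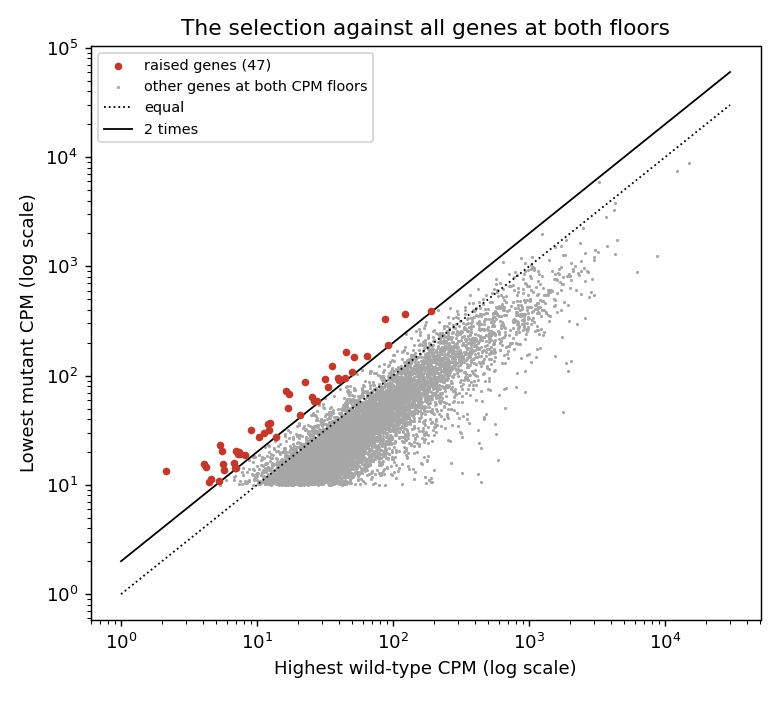
Lowest mutant CPM against highest wild-type CPM (both log scales) for the 9116 genes at both floors, with the 47 members in red and the other genes in grey. The dotted line marks equal levels and the solid line a ratio of 2, and the member farthest above the solid line has a ratio of 6.30.

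The distances of the members from the threshold of 2 form a continuum with the genes left out. For 20 members the lowest mutant plant was less than 2.5 times the highest wild-type plant, and for 13 it was at least 3 times. The members just inside had ratios of 2.02, 2.04 and 2.05, and the genes just outside had 1.97, 1.95 and 1.95. At the mutant floor, the lowest readings were 10.5, 10.96 and 11.2 CPM inside and 8.998, 8.97 and 8.07 CPM outside. At the wild-type floor they were 1.11, 1.14 and 1.15 CPM inside and 0.582, 0.423 and 0.0221 CPM outside, where only 3 genes failed the rule by this floor alone. A further 429 genes at both floors had a mutant mean of at least 2 times the wild-type mean and did not meet the rule.

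With total counts as the only scaling, fewer genes met the rule than met its mirror image, and with TMM-adjusted library sizes (trimmed mean of M-values) the numbers were close, at 90 and 93. Without mutant replicate 1, on total counts, the order turned round, with 261 genes by the rule and 207 by its mirror image. The mirrored rule, with mutant and wild type exchanged, was met by 114 genes, or 1.15% of the 9948 genes at its floors. Those genes took 0.186% ± 0.00767 of the mutant counts and 1.27% ± 0.121 of the wild-type counts (SD, n = 3 each). On total counts their median difference was 5.99-fold, and 26 of the 114 were at least 10-fold lower in the mutant. On the same scale 1 of the 47 members was at least 10-fold higher. TMM factors averaged 0.932 in the mutant and 1.08 in the wild type, which raises mutant levels relative to wild-type levels. They were 0.869, 0.931 and 0.996 in mutant replicates 1 to 3, and 1.18, 1.05 and 1.01 in wild-type replicates 1 to 3. This scaling thus raised mutant replicate 1 the most and lowered wild-type replicate 1 the most. Of the 90 genes that then met the rule, 46 were members. The member lost under that scaling was at rank 27, whose lowest wild-type level became 0.966 CPM. The ratio of means of the 47 members then had a median of 5.63 and ran from 3.21 to 22.8. With TMM the members at ranks 20, 26, 27, 28 and 46 were above 10-fold, at 22.8, 10.6, 10.3, 10.02 and 10.8. The 10-fold differences of the mirrored genes were not computed with TMM, so the contrast of 1 with 26 holds for total counts only.

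Identifiers of the members were spread over the annotation. The letter that follows MgTOL takes 15 values, and members occurred under 14 of them, with 7 under J, 6 under M, 5 each under H and N and 0 under I. As a share of the genes at both floors under the same letter, members made up 1.06% under J and 0.844% under M, against 0.516% over all letters. A lone member under O was 1.69% of the 59 genes there. The identifiers of the members at ranks 23 and 41 were 2 apart in number, and all other neighbouring members under a letter were at least 24 apart. The member at rank 23 had 88.4, 36.7 and 56.0 CPM in the mutant, against 12.5, 5.74 and 11.2 CPM in the wild type. The member at rank 41 had 14.4, 22.1 and 16.2 CPM in the mutant, against 7.04, 4.81 and 4.95 CPM in the wild type. Mutant replicate 1 was the highest mutant plant for the member at rank 23 and the lowest for the member at rank 41, whereas the wild-type plants had the same order in both members, with replicate 1 highest and replicate 2 lowest. Whether numbers follow the order on a chromosome was not examined.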

How the data were processed

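The authors deposited 1 table of raw, not normalized read counts per gene for the 6 libraries. Tools named in the submitters' processing notes are featureCounts 1.22.2, STAR 2.7.11b, SAMtools 1.12, Trimmomatic 0.39 and Picard 2.25.6, and per the file headers, duplicates had been marked in the counted alignments. Not given in the sources used here are the genome build, the strand setting and the treatment of duplicates and of reads with several positions, so near-identical or overlapping genes may share reads. Columns were matched to samples through the library names in the labels, and 0 columns were left over. Per the labels, all RNA integrity numbers exceeded 7.3.

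CPM were computed on total counts, with no other scaling. The test across all genes used edgeR 4.0.16 in R 4.3.3 on the counts (filterByExpr with minimum count 10 and minimum total 15, TMM, glmQLFit, two-sided glmQLFTest for genotype, no covariate). It was tried on simulated data only with changes larger than most members had, so that trial does not cover ratios like theirs. DESeq2 1.42.0 and limma 3.58.1 (voom) were alternatives. No replicate pair was alike within counting noise (lowest chi-square 201 per degree of freedom). The members, and all measures of them, were chosen with earlier results of these data known. The identifiers printed are those of the member with the highest mean mutant level and the member with the largest ratio of lowest mutant to highest wild-type level. Other members are given by rank. The planned marker lists were not used, as no names were at hand.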

Additional observations from a re-analysis of the deposited data

How the results depend on the processing

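With TMM-adjusted sizes and DESeq2 size factors, 90 and 91 genes met the rule, with median ratios of 4.37 and 4.31 and 2.40% and 2.37% of mutant counts on average. A ratio of 1.5 gave 135 genes (median 3.36, share 2.79%) and 265 by the mirrored rule, and a ratio of 3 gave 13 (median 5.85, share 0.124%) and 51. The share was 0.484% with a higher floor of 5 CPM, 0.433% with 20 CPM and 0.511% with no lower floor; the mirrored rule then gave 75 genes at 20 CPM and 265 with no lower floor. Leaving out 1 library gave 72 to 261 genes by the rule, median ratios of 3.85 to 4.91, shares of 0.742% to 4.99% and 156 to 207 genes by the mirrored rule; only without mutant replicate 1 did the rule (261) exceed its mirror image (207). The percentage of members highest in mutant replicate 1 was 25.5%, against 31.4% of all genes at both floors, and 20.8% to 25.2% with 1 wild-type library left out. It was 33.3% with TMM-adjusted sizes, 33.0% with DESeq2 size factors, 38.5% at a ratio of 3 and 18.75% with a higher floor of 20 CPM. The other changes of ratio or floor gave 23.2% to 25.9%. It was 45.6% without mutant replicate 2 and 40.3% without mutant replicate 3. Only 1 other mutant plant was then left to compare, so these 2 values are not comparable with the rest. By edgeR 35 members and 63 genes in all were called higher, and 2 to 32 and 2 to 231 with 1 library left out. All genes called higher numbered 190 at an adjusted p below 0.1, 38 with total counts only and 646 with DESeq2. By limma-voom 36 members and 53 genes in all were called higher. By edgeR with RLE (relative log expression) factors the numbers were 34 and 61. A replicate block left 11 members and 15 genes in all. Same-numbered plants are not known to be paired. The correlations of their deviations were 0.0943, 0.197 and -0.0266 for replicates 1, 2 and 3. For replicates 1 and 2 they were the highest that either plant had with any plant of the other genotype. Mutant replicate 3 correlated better with wild-type replicate 1 (0.0361). These correlations do not settle whether the plants were paired. The cause of these changes was not tested. Counts limit the precision of the least abundant members, down to 43 counts in a wild-type library.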

Other observations

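Of the 3 genes kept out of the rule by the wild-type floor alone, 2 shared a pattern over the mutant plants. The first had 13.7, 64.0 and 13.8 CPM in mutant replicates 1 to 3, against 0.423, 3.03 and 2.18 CPM in wild-type replicates 1 to 3. The second had 10.7, 68.6 and 15.2 CPM in the mutant, against 0.582, 3.61 and 2.56 CPM in the wild type. In both genes mutant replicate 2 was the high plant and wild-type replicate 1 the low one. Of the 47 members, 19 (40.4%) were highest in mutant replicate 2, against 32.7% of all genes at both floors, and the difference was not tested. The remaining gene had 257, 473 and 427 CPM in the mutant, against 32.9, 0.0221 and 5.07 CPM in the wild type, so it was also highest in mutant replicate 2, and it was nearly absent from 1 wild-type plant.

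Of the 63 genes that edgeR called higher, 28 were not members. Of these, 17 reached both floors and missed only the ratio, with a lowest mutant level of 1.57 to 1.95 times the highest wild-type level and ratios of means from 2.28 to 4.29. The other 11 were below the mutant floor, and 6 of them were also below the wild-type floor.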
